A study of Mus musculus with 79 samples.

Results

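Interferon-stimulated genes were followed through nerve repair in mouse, in 40 genes taken by symbol from the 23361 genes of each count table. All 40 were measured in macrophages, in a sorted Schwann cell fraction and in the distal nerve stump, and all 40 passed the filter on low counts in every comparison described here. The common peroneal nerve was cut and joined through a silicone conduit to the tibial stump, either at once (immediate repair) or after the tibial nerve had been denervated for 8 weeks (delayed repair). Animals of the immediate group had the surgical site opened and closed 8 weeks before repair. All animals carried green fluorescent protein under the human S100beta promoter, the study's mark of Schwann cells; the age of the animals is not given in the sources used here. Cells came from the bridge that had formed in the conduit 5 or 14 days after repair, with 1 bridge per animal and none pooled, and the tibial stump was taken at day 5 only. There were 79 libraries from 32 animals of both sexes. The stump gave 9 delayed and 7 immediate libraries. Macrophages gave 9 delayed and 8 immediate libraries at day 5 and 7 and 8 at day 14. The sorted Schwann fraction gave 9 and 7 at day 5 and 7 and 8 at day 14.

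Interferons are secreted when cells sense foreign or misplaced nucleic acids. Type I interferons such as interferon beta act through the receptor pair IFNAR1 and IFNAR2 and a complex that contains STAT2 and IRF9 and binds the interferon-stimulated response element, whereas interferon gamma acts through IFNGR1 and IFNGR2 and on promoters with a gamma-activated site. The genes induced in this way block viral replication, tag proteins with the ubiquitin-like protein ISG15, amplify sensing and, in macrophages, arm the cell against microbes; in injured nerve they are read as part of the innate immune response.

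The 40 genes were grouped by what their products do. There were 9 antiviral effectors (Ifit1, Ifit2, Ifit3, Mx1, Mx2, Rsad2, Bst2, Ifitm3 and Eif2ak2), 5 oligoadenylate synthetases and relatives (Oas1a, Oas2, Oas3, Oasl1 and Oasl2), and 7 genes of ISG15, ubiquitin or ADP-ribose ligation (Isg15, Usp18, Herc6, Trim25, Dtx3l, Parp9 and Parp14). Another 4 were transcription factors (Irf1, Irf7, Irf9 and Stat2), 5 were nucleic acid sensors (Ifih1, Ddx58, Dhx58, Zbp1 and Znfx1), 5 were interferon-gamma-inducible GTPases (Gbp2, Gbp3, Ifi47, Igtp and Irgm1), and 5 were other induced genes (Ifi44, Ifi35, Xaf1, Rtp4 and Cmpk2).

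Promoter sequence from RefSeq (GRCm38.p6) was found for 31 of the 40. The 9 without an entry were Mx1, Mx2, Oas2, Usp18, Parp9, Parp14, Dhx58, Zbp1 and Rtp4. The core of the interferon-stimulated response element (GAAA, then 2 bases of any kind, then GAAA) was searched on both strands in the 250 bases before each start and was found in 12 of 31 promoters (38.7%), against 3.0% of 26994 other promoters. The letters TTCNNNGAA, the core of the gamma-activated site, were found in 6 of 31 (19.4%), against 7.16% of the others. Each letter match is a description of the window and not a shown binding site. The 6 stretches below are 60 bases long and belong to genes followed in every comparison; they are given 5′ to 3′ on the strand of the gene, with the matches in capitals. The match is to the response element, which on the opposite strand reads TTTC, 2 bases and TTTC, in all but Irf1, where it is to TTCNNNGAA.

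Ifit1, antiviral effector, chr19:34640779-34640838, + strand: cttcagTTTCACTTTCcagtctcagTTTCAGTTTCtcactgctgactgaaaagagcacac

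Isg15, ubiquitin-like protein, chr4:156200850-156200909, - strand: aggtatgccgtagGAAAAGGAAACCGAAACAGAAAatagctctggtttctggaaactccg

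Rsad2, antiviral effector, chr12:26456538-26456597, - strand: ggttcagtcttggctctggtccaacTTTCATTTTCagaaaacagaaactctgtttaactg

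Stat2, transcription factor, chr10:128270251-128270310, + strand: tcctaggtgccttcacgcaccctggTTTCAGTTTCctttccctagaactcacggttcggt

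Gbp2, GTPase, chr3:142620579-142620638, + strand: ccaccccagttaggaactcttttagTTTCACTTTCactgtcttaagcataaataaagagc

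Irf1, transcription factor, chr11:53769898-53769957, + strand: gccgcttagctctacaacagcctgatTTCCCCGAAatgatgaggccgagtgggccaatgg

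Library totals were 3898778 to 9212709 counts in the stump, 14928745 to 28499407 in macrophages and 11614940 to 30796823 in the Schwann fraction. Levels are CPM, counts scaled to the library total. The libraries of sorted cells were amplified from the RNA of 1000 cells and those of the stump were not, and levels of the stump and of sorted cells are not set against each other. Macrophage libraries carried their markers: the summed level of 8 macrophage genes was 10998 to 15879 CPM, and that of 8 Schwann cell genes was 1.73 to 32.9 CPM. Libraries labelled Schwann cells held 142 to 3369 CPM of the same 8 Schwann cell genes, but 17063 to 39176 CPM of 8 dendritic cell genes (Flt3, Ccr7, Cd74, Zbtb46, H2-Ab1, Itgax, Xcr1 and Clec9a). The gate took GFP-positive cells negative for the macrophage markers and for the sorted-out lineages, which did not include a dendritic cell marker. These libraries are therefore called the sorted Schwann fraction, and every value in them is a value of that mixture. In the bulk stump, fewer cells of a type and less RNA per cell cannot be told apart.

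In the stump at day 5, interferon-stimulated genes were higher after delayed than after immediate repair. Of the 40, 22 rose and 0 fell past a Benjamini-Hochberg adjusted p of 0.05 in edgeR's quasi-likelihood test, against 12.8% of the 12229 genes tested that rose and 13.5% that fell. The fitted log2 fold change (delayed minus immediate) was above 0 for 40 of 40, against 52.4% of all genes, and ran from 0.27 for Xaf1 to 1.18 for Ifi44. The median was 0.68, against 0.02 over all genes. No member had delayed and immediate libraries that did not overlap, against 4.44% of all genes.

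**Figure D1:**
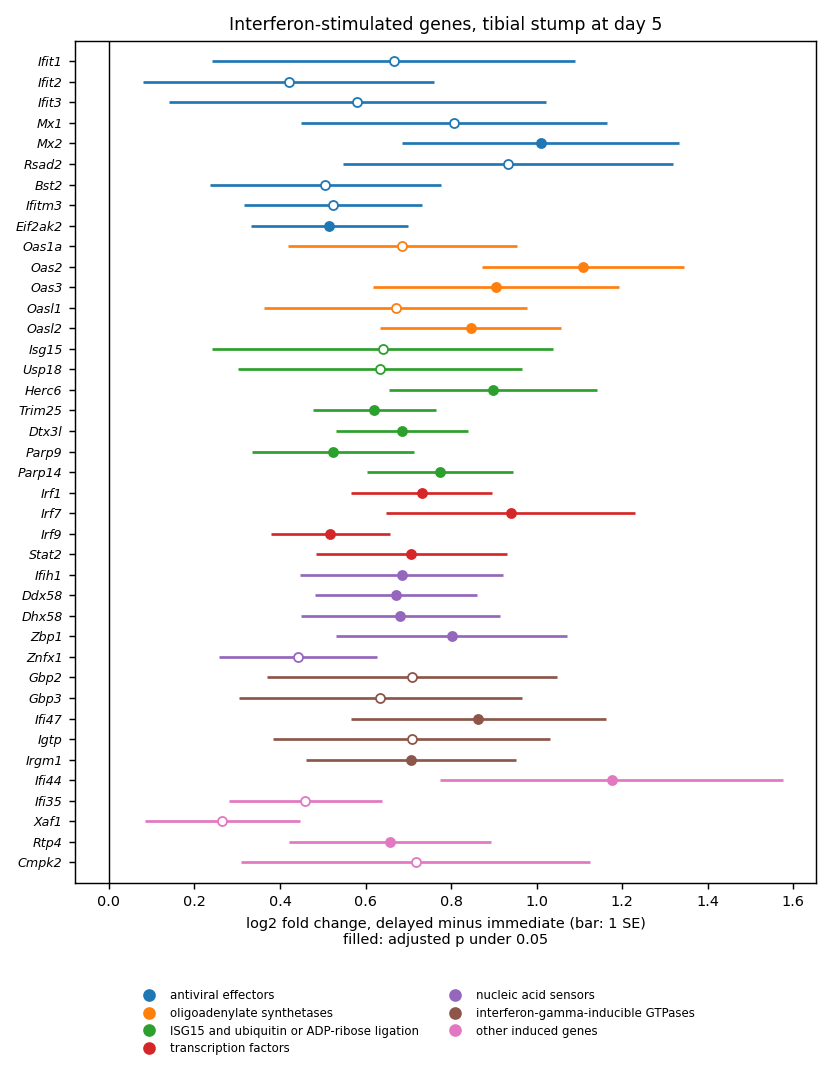
Log2 fold change (delayed minus immediate repair) of each of the 40 interferon-stimulated genes in the tibial stump at day 5, with 1 standard error; colours give the role and filled points have an adjusted p under 0.05. All 40 points lie to the right of 0, and 22 are filled.

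Among the antiviral effectors, 2 of 9 rose, Mx2 and Eif2ak2, and the median log2 fold change was 0.58. Mx2, a dynamin-like GTPase that blocks viral nucleoprotein complexes, was at 21.7, 63.2 and 96.2 CPM (lowest, median and highest of 9) after delayed repair and at 11.1, 27.9 and 56.5 (of 7) after immediate repair. Most delayed libraries lay above most immediate ones, with overlap. The means were 59.8 ± 26.1 (SD, n = 9) and 30.3 ± 13.9 (n = 7) CPM, a log2 fold change of 1.01 (SE 0.32, edgeR adjusted p = 0.0289), and 7 of 9 delayed libraries were above the immediate mean.

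Ifit1, which binds viral RNA lacking 2′-O methylation, was at 35.9, 96.1 and 199 CPM after delayed repair and at 18.8, 55.1 and 157 after immediate repair. The groups overlapped over most of their range, with 5 of 9 delayed libraries above the immediate mean (log2 fold change 0.67, SE 0.42, edgeR adjusted p = 0.261). Mx1, the nuclear relative of Mx2, was at 39.1, 116 and 248 against 25.2, 58.4 and 116 CPM (0.81, SE 0.36, edgeR adjusted p = 0.105). Rsad2, the radical enzyme viperin, was at 93.6, 149 and 590.2 against 36.0, 92.9 and 202 CPM (0.93, SE 0.39, edgeR adjusted p = 0.0827). These 3 had higher means after delayed repair and did not pass the threshold, and 1 delayed library, replicate 6, held the highest Rsad2 value.

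The oligoadenylate synthetases, which make the second messenger that activates RNase L, had a median log2 fold change of 0.85, and 3 of 5 rose (Oas2, Oas3 and Oasl2). Oas2 was at 107, 162 and 296 CPM after delayed repair and at 45.9, 91.2 and 121 after immediate repair, means of 186 ± 70.5 (n = 9) and 88.0 ± 23.2 (n = 7). All 9 delayed libraries were above the immediate mean, and only the lowest delayed values fell within the immediate range. Its log2 fold change of 1.11 (SE 0.24, edgeR adjusted p = 0.00253) came with the lowest adjusted p of the 40. Oas3 rose by 0.91 (SE 0.29, edgeR adjusted p = 0.0271), with 55.3, 94.2 and 189 against 27.8, 52.9 and 97.6 CPM. Oasl2, a relative with ubiquitin-like domains, rose by 0.85 (edgeR adjusted p = 0.00742), with 115 to 303 against 57.5 to 151 CPM.

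Of the ligation genes, 5 of 7 rose (Herc6, Trim25, Dtx3l, Parp9 and Parp14), but neither Isg15 nor Usp18, the protease that removes ISG15, passed the threshold. Isg15 was at 18.8, 41.0 and 104 CPM against 10.2, 23.9 and 60.6, and 5 of 9 delayed libraries were above the immediate mean (log2 fold change 0.64, SE 0.40, edgeR adjusted p = 0.248). Herc6, the main ISG15 ligase of mouse, was at 49.6 to 177 against 31.9 to 72.0 CPM and rose by 0.90 (edgeR adjusted p = 0.012). Trim25, a ubiquitin ligase that activates the sensor RIG-I, was at 153 to 270.2 against 91.4 to 182 CPM (0.62, edgeR adjusted p = 0.00464). The ADP-ribosyltransferase Parp14 was at 332 to 717 against 195 to 406 CPM (0.77, edgeR adjusted p = 0.00316). For Trim25, Parp14 and Dtx3l (0.69, edgeR adjusted p = 0.00362), all 9 delayed libraries lay above the immediate mean.

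All 4 transcription factors rose. Irf7, the factor that amplifies type I interferon production, was at 117, 225 and 415 CPM after delayed repair and at 62.8, 134 and 211 after immediate repair (log2 fold change 0.94, SE 0.29, edgeR adjusted p = 0.0243). Irf1, which is induced by interferon gamma and by type I interferon, was at 72.5, 98.7 and 149.6 against 41.7, 54.6 and 80.7 CPM (0.73, SE 0.17, edgeR adjusted p = 0.00382). Stat2, a subunit of the type I complex, was at 113, 196 and 303 against 58.4, 122 and 166 CPM (0.71, SE 0.22, edgeR adjusted p = 0.0265). Every delayed library was above the immediate mean for Irf1, and 7 of 9 were for Irf7 and Stat2. Irf9, the DNA-binding subunit of the same complex, rose by 0.52 (edgeR adjusted p = 0.0113), with 9 of 9 above.

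**Figure D2:**
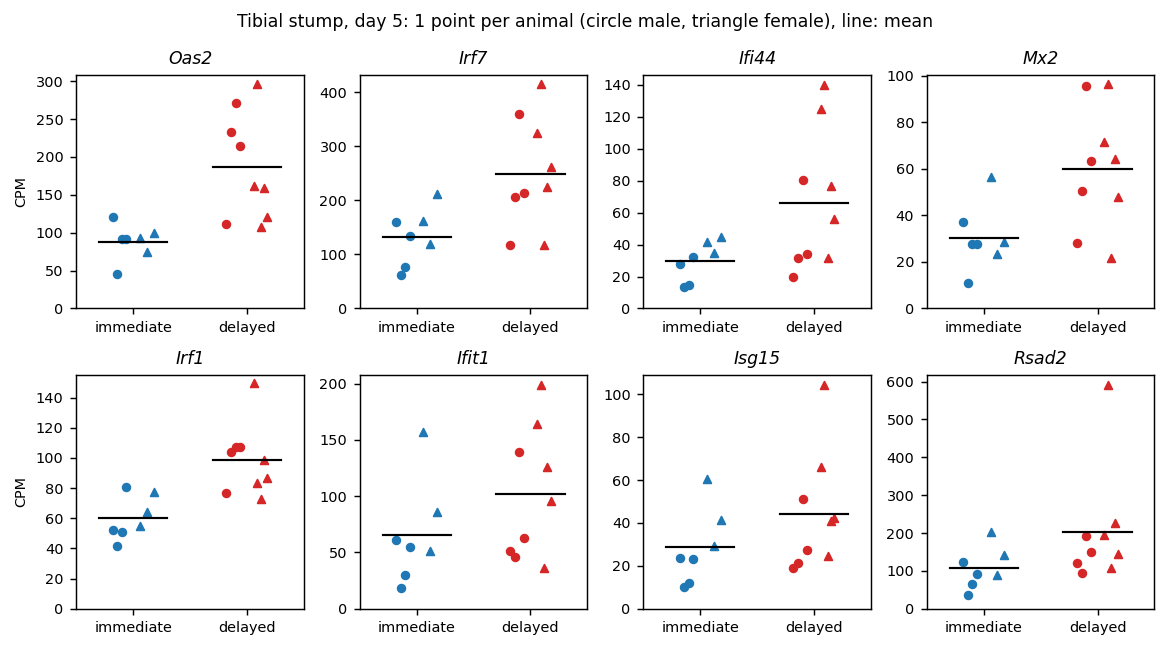
Level in CPM (linear axis from 0) of single interferon-stimulated genes in each stump library at day 5, by repair group, with 1 point per animal (circles male, triangles female) and a line at the group mean. The groups overlap in every panel, and the delayed means are higher, as for Oas2 (186 against 88.0 CPM).

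The sensors rose in 4 of 5: Ddx58, which encodes RIG-I (log2 fold change 0.67, edgeR adjusted p = 0.0152), Ifih1, which encodes MDA5 (0.69, 0.0413), their relative Dhx58 (0.68, 0.0384) and Zbp1, a sensor of Z-form nucleic acid (0.80, 0.0361). Znfx1 had 0.44 with an edgeR adjusted p of 0.0848. The GTPases Ifi47 (0.86, edgeR adjusted p = 0.0406) and Irgm1 (0.71, 0.0424) rose. Gbp2, which coats pathogen vacuoles, was at 52.2, 91.0 and 263 against 35.8, 59.3 and 122 CPM and did not pass (0.71, SE 0.34, edgeR adjusted p = 0.132). Of the other induced genes, Ifi44 and Rtp4 rose (0.66 for Rtp4, edgeR adjusted p = 0.0481). Ifi44 had the largest fitted change of the 40, with 19.6, 55.9 and 140.0 CPM after delayed and 13.1, 32.01 and 44.5 after immediate repair (1.18, SE 0.40, edgeR adjusted p = 0.0378), and 8 of 9 delayed libraries were above the immediate mean.

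The number of genes called depended on the filter on low counts, without which it was 13, and on single libraries. It was 11, 13, 10 and 14 without delayed replicates 3, 5, 6 and 8 and 13, 9, 10 and 10 without immediate replicates 1, 2, 3 and 7, although the fitted change of each named gene stayed above 0. Single libraries moved 4 fitted log2 fold changes by more than 1.5 times. Without delayed replicate 6, Isg15 went from 0.64 to 0.38 and Rsad2 from 0.93 to 0.54. Gbp2 went from 0.71 to 0.40 without delayed replicate 5, and Ifit1 from 0.67 to 1.04 without immediate replicate 6. Ifi44 lost its call without delayed replicate 3, 5, 6 or 8 or immediate replicate 1, 2, 3, 4 or 7, and Mx2 and Oas3 lost theirs without delayed replicate 3 or 6 or immediate replicate 2, 3 or 7. The call of Irf7 was lost without immediate replicate 2 or 3, and that of Stat2 without delayed replicate 6 or immediate replicate 2 or 7. Over all 23 alternatives, with the fits within sexes among them, Irf7 and Stat2 each passed in 18. In 9 genes (Ddx58, Dtx3l, Herc6, Irf1, Irf9, Oas2, Oasl2, Parp14 and Trim25) the call held in the 21 alternatives that kept both sexes, which were other settings of the fit or left out 1 library each. Within sexes, a choice made after the data were seen, 7 of 40 rose in the 4 delayed and 4 immediate males (median log2 fold change 0.79, against 3.53% of genes tested that rose) and 0 in the 5 and 3 females (median 0.49, against 1.03% that rose), where 8 of 40 had an unadjusted p under 0.05, against 23.6% of all genes. The interaction of repair with sex called 0 of 40 with edgeR, 0 at an unadjusted p under 0.05, and 0 with DESeq2, against 0% of 12229 genes called and 2.22% unadjusted, and over the 8 genes followed throughout it ran from -0.52 for Ifit1 to 0.30 for Gbp2.

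Markers of other cell types moved in the stump together with these genes, and their part in the result was not tested. Over all genes tested there, 12.8% rose and 13.5% fell. Of 8 macrophage genes, 2 rose (Emr1 by 0.84 and Csf1r by 0.64 on the log2 scale), and their summed level was 2257 to 3873 CPM after delayed and 966 to 3444 after immediate repair. Of 8 dendritic cell genes, 4 rose (583 to 1147 against 314 to 903 CPM), and all 4 endothelial genes rose (773 to 1191 against 520 to 713 CPM). All 8 Schwann cell genes fell, with log2 fold changes of -4.86 to -1.94 (121 to 848 against 1403 to 3331 CPM). Natural killer cell genes summed to 5.63 to 49.8 against 1.68 to 33.6 CPM, and 0 of 3 tested were called by edgeR. The 5 T cell genes summed to 12.8 to 68.3 against 4.82 to 29.2 CPM, and Cd4, the only one of them tested, rose by 1.27.

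Of 89 further genes of the interferon pathway, 67 were tested in the stump. There 34 rose and 0 fell, against 12.8% and 13.5% of all genes tested. None of 19 ligand genes reached the filter. Interferon gamma (Ifng) was counted in 8 of 9 delayed libraries, with a median of 0.508 CPM and a highest value of 1.40, and in 4 of 7 immediate libraries, with a median of 0.157 and a highest value of 0.502, whereas 3 counts came to 0.326 to 0.769 CPM. Those levels are too close to that floor for a comparison. Of the receptors, Ifngr1 (log2 fold change 0.55, edgeR adjusted p = 0.00526), Ifngr2 (0.53, 0.000727) and Ifnar2 (0.39, 0.0169) rose, and Ifnar1 had 0.18 (0.0615). The kinase Jak2 rose by 0.61 (edgeR adjusted p = 0.00131). Of 38 tested further induced genes outside the 40, 20 rose, against 12.8% of all genes tested. Among them were Gbp4 (1.37, edgeR adjusted p = 0.0039) and Nlrc5, the activator of MHC class I genes (0.99, 0.0012). The chemokines Cxcl9 (1.49, edgeR adjusted p = 0.0938) and Cxcl10 (1.12, 0.0976) did not pass.

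In the sorted cells, no interferon-stimulated gene passed the threshold between delayed and immediate repair at either day. The count was 0 of 40 with edgeR, with DESeq2 and in every other alternative, in macrophages at day 5 (0.0357% of 8409 genes called, 0.0119% higher and 0.0238% lower) and day 14 (0% of 8589), and in the Schwann fraction at day 5 (0% of 9604) and day 14 (0% of 10226). In the same order, 5, 2, 4 and 2 of 40 had an unadjusted p under 0.05, against 5.17%, 2.21%, 5.26% and 3.65% of all genes. The median log2 fold changes were 0.10, 0.14, 0.17 and 0.10, with 26, 30, 28 and 25 of 40 above 0, against 52.9%, 50.4%, 48.1% and 49.1% of all genes. With 1 library left out at a time, these medians ran from 0.04 to 0.19, 0.003 to 0.23, 0.12 to 0.29 and 0.03 to 0.29. The repair groups of no member were free of overlap in these 4 comparisons, against 0.0476%, 0.0116%, 0.0416% and 0.0587% of all genes. In simulated data of the same size, the test recovered 80.5% and 79% of genes changed 2-fold in macrophages at days 5 and 14. In the Schwann fraction it recovered 27.5% and 20.5%, so a change of that size was mostly not detectable there. The changed genes were drawn at random from all genes tested, and recovery of the 40 themselves was not simulated. The median SD within groups, as log2(CPM + 1), was 0.47 for the 40 and 0.34 over all genes in macrophages. It was 0.66 and 0.67 in the Schwann fraction.

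**Figure D3:**
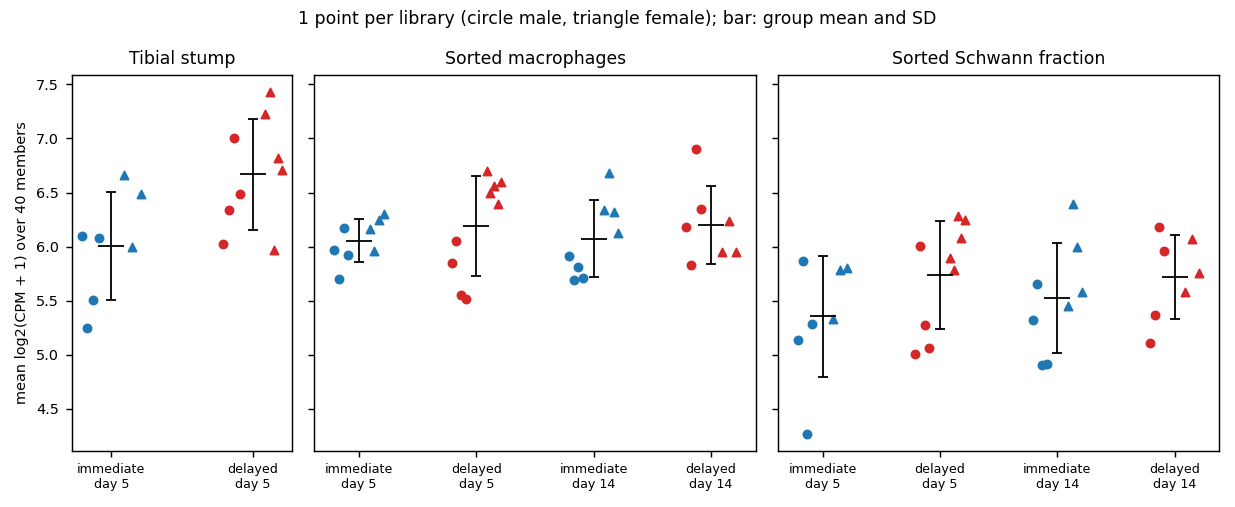
Mean of log2(CPM + 1) over the 40 interferon-stimulated genes in each library of the stump, macrophages and Schwann fraction (circles male, triangles female), with the group mean and SD. In the stump the delayed mean is 6.67 (5.97 to 7.43) and the immediate mean 6.01 (5.25 to 6.66). The repair groups overlap in the stump and, at both days, in the sorted cells.

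In macrophages at day 5 the lowest p was that of Ifi44, at 5.84, 22.6 and 32.4 CPM (n = 9) after delayed repair and 5.30, 11.2 and 17.4 (n = 8) after immediate repair. The delayed libraries reached higher and also lay as low as the immediate ones (log2 fold change 0.73, SE 0.27, edgeR adjusted p = 0.787). Herc6 was at 50.4 ± 15.6 against 35.0 ± 6.23 CPM (0.41, SE 0.16) and Ifi35, a leucine zipper protein, at 100.9 ± 22.2 against 74.9 ± 13.5 CPM (0.34, SE 0.13), both with an edgeR adjusted p of 0.817. Isg15 had a lower mean after delayed repair, 90.4 ± 19.1 against 107 ± 28.5 CPM, as did Ifit1 (167 ± 68.5 against 189 ± 58.0) and Rsad2 (236 ± 112 against 269 ± 47.8). Mx1 (12.9 ± 5.09 and 13.5 ± 5.55), Irf7 (731 ± 209 and 677 ± 118), Irf1 (202 ± 64.6 and 211 ± 37.6), Stat2 (86.6 ± 25.9 and 72.2 ± 10.4) and Gbp2 (57.9 ± 23.3 and 57.0 ± 11.4) overlapped between the groups. The lowest edgeR adjusted p of these 8 genes was 0.923.

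In macrophages at day 14 the lowest p was that of Irf7, at 332, 646 and 1368 CPM (n = 7) after delayed repair and 349.6, 433 and 807 (n = 8) after immediate repair (log2 fold change 0.59, SE 0.25, unadjusted p = 0.0322 and adjusted p = 0.9999 in edgeR). Delayed replicate 3 held 1368 CPM, and 6 of 7 delayed libraries were above the immediate mean. Ddx58 was at 49.1 ± 19.1 against 37.2 ± 6.24 CPM (0.42, SE 0.20) and Usp18 at 69.3 ± 29.9 against 49.2 ± 21.0 (0.53, SE 0.28). The remaining levels overlapped, such as Ifit1 at 82.4 ± 32.8 and 98.2 ± 76.2, Isg15 at 68.6 ± 19.3 and 73.1 ± 20.9, Rsad2 at 215 ± 80.4 and 185 ± 93.4, and Gbp2 at 60.4 ± 13.3 and 75.9 ± 26.4 CPM. Mx1 was at 14.7 ± 4.68 and 15.7 ± 8.23, Irf1 at 193 ± 56.5 and 185 ± 65.1, and Stat2 at 87.1 ± 9.99 and 81.4 ± 21.5 CPM.

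At day 5 in the Schwann fraction, Trim25 was at 181 ± 41.6 (n = 9) after delayed and 129.7 ± 25.3 (n = 7) CPM after immediate repair (log2 fold change 0.46, SE 0.16) and Oas1a at 50.8 ± 20.2 against 33.2 ± 6.46 (0.59, SE 0.21), both with an edgeR adjusted p of 0.818. Ifi35 was at 99.2 ± 24.8 against 77.7 ± 21.6 CPM (0.34, SE 0.16, edgeR adjusted p = 0.913). These 3 had the lowest p of the 40, and their groups overlapped. Mx1 was at 31.2 ± 15.8 and 19.995 ± 16.4, Irf7 at 274 ± 116 and 180.4 ± 65.7, Rsad2 at 51.1 ± 28.3 and 71.3 ± 49.4, and Irf1 at 920.1 ± 151 and 1135 ± 256 CPM. Ifit1 (45.4 ± 14.0 and 51.9 ± 54.2), Isg15 (197 ± 81.7 and 209 ± 62.0), Stat2 (122.5 ± 41.7 and 102 ± 44.1) and Gbp2 (152 ± 52.3 and 136 ± 35.3) lay within each other's spread. At day 14 Parp14 had the lowest p, at 18.8, 53.8 and 78.7 CPM (n = 7) against 11.3, 23.4 and 43.6 (n = 8), with 6 of 7 delayed libraries above the immediate mean (0.96, SE 0.30, unadjusted p = 0.00598 and adjusted p = 0.998 in edgeR). Stat2 (119.5 ± 42.0 against 79.8 ± 31.4 CPM, 0.58) and the membrane tether Bst2 (119 ± 38.3 against 88.7 ± 18.6, 0.40) followed, and Irf7 was at 274 ± 156 against 177 ± 77.4 CPM. Ifit1 had the lowest log2 fold change of the 40 (-0.46), at 31.6 ± 28.8 against 42.9 ± 44.1 CPM, and Isg15 was at 109 ± 27.7 against 123 ± 86.6. Mx1 (17.3 ± 10.5 and 18.5 ± 7.69), Rsad2 (33.1 ± 26.4 and 32.1 ± 35.8), Irf1 (697 ± 260 and 733.5 ± 259) and Gbp2 (186 ± 63.3 and 194 ± 117) overlapped between the groups.

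The repair effect was not shown to differ between the days. The interaction of repair with day called 0 of 40 in macrophages (0.0223% of all genes called, 1 of 40 at an unadjusted p under 0.05 against 3.61% of all genes) and 0 of 40 in the Schwann fraction (0% of all genes, 0 of 40 unadjusted against 4.8%), and DESeq2 called 0 in each. Over the 8 genes followed throughout the interaction ran from -0.23 for Gbp2 to 0.57 for Irf7 in macrophages and from -0.76 for Mx1 to 0.65 for Rsad2 in the Schwann fraction. The lowest p in macrophages belonged to Ifitm3 (difference of log2 fold changes, day 14 minus day 5, 0.44, SE 0.21), Irf7 (0.57, SE 0.30) and Bst2 (0.35, SE 0.23), and in the Schwann fraction to Irgm1 (-0.97, SE 0.56), Parp14 (0.78, SE 0.50) and Ifi35 (-0.38, SE 0.26).

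Between day 5 and day 14 a few of the 40 genes changed in macrophages. After immediate repair 5 of 40 fell (Ifitm3, Isg15, Irf7, Xaf1 and Oas1a) and 1 rose (Trim25), against 6.01% of 8507 genes that fell and 5.33% that rose. Scaling by library size alone gave 3 that fell and 7 that rose, and sex as a covariate gave 9 that fell and 3 that rose. Without day 5 replicate 2 or day 14 replicate 5 or 6, 8 fell. Ifitm3, which blocks viral entry at the endosome, was at 936, 1131 and 1355 CPM (n = 8) at day 5 and at 477, 703 and 773 (n = 8) at day 14. The days did not overlap for Ifitm3, as for 2.77% of all genes, and it fell by 1.01 on the log2 scale (SE 0.12, edgeR adjusted p = 3.54e-05). Isg15 was at 72.2, 105 and 145 CPM at day 5 and at 48.8, 70.2 and 104 at day 14 (-0.73, SE 0.19, edgeR adjusted p = 0.0175). Irf7 was at 561, 635 and 895 against 349.6, 433 and 807 CPM (-0.68, SE 0.16, edgeR adjusted p = 0.0105). Every day 14 library was below the day 5 mean for Isg15, and 7 of 8 were for Irf7. Xaf1, a pro-apoptotic gene, had -0.61 (SE 0.16, edgeR adjusted p = 0.0182) and Oas1a -0.37 (SE 0.11, 0.0365). Trim25 rose from 194 ± 46.9 to 289.5 ± 50.5 CPM (0.42, SE 0.12, edgeR adjusted p = 0.0342), and this call was lost without any of day 5 replicates 3, 5 and 6 or day 14 replicates 2, 3, 5 and 7. Ifitm3, Irf7 and Isg15 were called in all 21 alternatives. Over the 8 genes followed throughout, the log2 fold change ran from -1.12 for Ifit1 (edgeR adjusted p = 0.0729) to 0.26 for Gbp2.

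After delayed repair 1 of 40 fell in macrophages and 0 rose, against 3.13% of 8529 genes that fell and 3.28% that rose, 6.41% in all. The days overlapped for all 40, and did not for 1.38% of all genes. Ifit1 was at 98.5, 146 and 313 CPM (n = 9) at day 5 and at 41.5, 86.2 and 127 (n = 7) at day 14, with all 7 later libraries below the day 5 mean (-1.09, SE 0.29, edgeR adjusted p = 0.0279). The call was lost without day 5 replicate 2 or any of day 14 replicates 2, 4, 6, 7 and 8. Ifitm3 was at 1089 ± 232 and 753 ± 263 CPM (-0.57, SE 0.17, edgeR adjusted p = 0.0506), and Gbp3, a guanylate-binding protein, at 21.5 ± 8.65 and 35.7 ± 13.2 (0.70, SE 0.24, 0.0908). Without day 14 replicate 3, the library with the highest Irf7, 5 of 40 fell. Over the 8 genes followed throughout, the log2 fold change ran from that of Ifit1 to 0.15 for Mx1. The dendritic cell genes also differed between the days, at 1036 to 4706 CPM in macrophage libraries of day 5 and 6856 to 17836 CPM at day 14, and their part in these results was not tested.

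After immediate repair 2 of 40 fell in the Schwann fraction and 0 rose, against 3.1% of 10016 genes that fell and 0.719% that rose, 3.81% in all. The log2 fold change was above 0 for 14 of 40, against 53.1% of all genes. Ifih1 was at 35.3, 45.6 and 67.8 CPM (n = 7) at day 5 and at 8.31, 23.6 and 35.0 (n = 8) at day 14, with no overlap, as for 1.51% of all genes (-1.21, SE 0.28, edgeR adjusted p = 0.0254). The RNA helicase Znfx1 was at 251 ± 67.3 and 132 ± 53.6 CPM (-1.18, SE 0.29, edgeR adjusted p = 0.0334), and Oasl1 at 164 ± 70.4 and 92.8 ± 45.3 (-0.97, SE 0.33, edgeR adjusted p = 0.11). The 8 genes followed throughout ran from -1.41 for Rsad2 (SE 0.79, edgeR adjusted p = 0.371) to 0.40 for Gbp2, and none of them passed. The count of fallen genes was 1 without day 5 replicate 1 or 3 or day 14 replicate 2, 4 or 7, and 0 without day 5 replicate 2 or day 14 replicate 8. Neutrophil genes stood apart in 2 of the immediate day 14 libraries, with a mean log2(CPM + 1) of 8.75 in replicate 3 and 5.90 in replicate 5 against 0.97 to 2.86 in the other 6. Over the 40 genes, replicate 3 had the lowest mean of that group (4.91). Replicate 4, with a neutrophil value of 1.69, was at 4.92, and replicate 5 was at 5.45. The fall of Ifih1 was -1.08 without replicate 3 (edgeR adjusted p = 0.0269) and -1.23 without replicate 5 (0.0245), and 2 and 3 of 40 fell without them.

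After delayed repair 1 of 40 rose and 2 fell in the Schwann fraction, against 3.34% of 9961 genes that rose and 4.75% that fell, 8.09% in all. Gbp3 was at 14.1, 29.0 and 50.6 CPM (n = 9) at day 5 and at 52.2, 70.6 and 124 (n = 7) at day 14, with no overlap, as for 1.27% of all genes (1.17, SE 0.24, edgeR adjusted p = 0.0114). Isg15 was at 97.2, 207 and 362 CPM at day 5 and at 64.1, 112.5 and 145 at day 14 (-1.08, SE 0.29, edgeR adjusted p = 0.0339), and Znfx1 at 219 ± 73.5 and 141 ± 35.4 (-0.84, SE 0.24, 0.0386). The 8 genes followed throughout ran from that value of Isg15 to 0.10 for Gbp2, and the other 7 did not pass. Both falls rested on many libraries. The count was 0 without day 5 replicate 1, 3, 4 or 7 or day 14 replicate 1, 2, 6 or 8, and 1 without day 5 replicate 2 or 6 or day 14 replicate 4. The median log2 fold change of the 5 GTPases was above 0 at day 14 in the 4 comparisons of days (0.32 to 1.07), though Gbp3 was the only one of them called in any. The mixture itself differed between the days. After delayed repair the 8 Schwann cell genes summed to 142 to 482 CPM at day 5 and 496 to 3369 at day 14, and 4 fibroblast genes to 0.687 to 991 and 584 to 5155 CPM. After immediate repair the Schwann cell genes were at 199 to 1275 and 462 to 1603 CPM and the fibroblast genes at 130 to 2139 and 449 to 6175 CPM. Their part in these results was not tested.

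Many of the 40 genes differed in level between macrophages and the sorted Schwann fraction of the same bridges. So did 65.3% of all genes at day 5 and 64.7% at day 14. At day 5, 24 of 40 were lower and 10 higher in the Schwann fraction than in macrophages, against 29.7% and 35.6% of 10087 genes, with a median log2 difference of -0.78 against 0.05 over all genes. At day 14, 22 were lower and 4 higher, against 27.6% and 37.1% of 10596 genes, with a median of -0.89 against 0.11. Scaling by library size alone gave 20 lower and 11 higher at day 5 and 19 lower and 10 higher at day 14. At day 5 the antiviral effectors were lower in 8 of 9 and the oligoadenylate synthetases in 5 of 5, while 5 of the 7 ligation genes were higher. At day 14 the same 2 roles were lower in 7 of 9 and 5 of 5, and 1 ligation gene was higher.

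**Figure D4:**
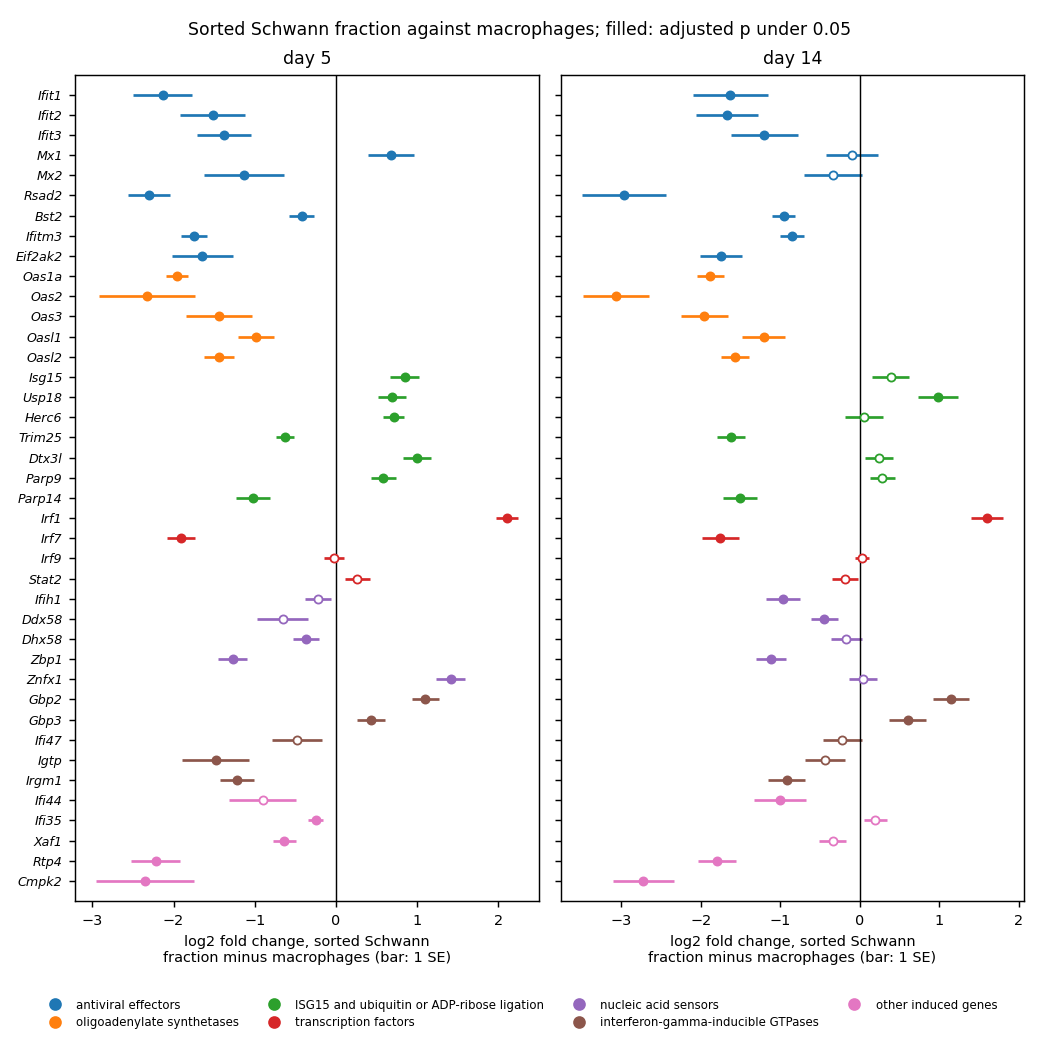
Log2 difference in level (sorted Schwann fraction minus macrophages) of each of the 40 interferon-stimulated genes at day 5 and day 14, with 1 standard error; colours give the role and filled points have an adjusted p under 0.05. Irf1 lies farthest to the right at both days (2.103 and 1.61), and the oligoadenylate synthetases lie to the left of 0.

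Irf1 had the largest difference in favour of the Schwann fraction. It was at 668, 977 and 1525 CPM (n = 16) there and at 103.5, 216 and 304 (n = 17) in macrophages at day 5 (2.103, SE 0.14, edgeR adjusted p = 3.63e-15), and at 441, 646 and 1178 (n = 15) against 78.5, 188 and 278 (n = 15) at day 14 (1.61, SE 0.20, edgeR adjusted p = 2.68e-08). The cell types did not overlap at either day. At day 5 Irf1, Irf7 and Znfx1 did not overlap (14.9% of all genes), and at day 14 Irf1, Oas1a, Oas2 and Eif2ak2 did not (17%). Gbp2 was also higher in the Schwann fraction, at 145 ± 45.0 against 57.5 ± 18.1 CPM at day 5 (1.10, SE 0.16) and 190.4 ± 92.4 against 68.7 ± 22.1 at day 14 (1.15, SE 0.23), with every Schwann fraction library above the macrophage mean.

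Znfx1 (233 ± 70.5 against 76.8 ± 30.9 CPM, 1.41, SE 0.18) and Isg15 (202 ± 71.7 against 98.2 ± 24.7, 0.85, SE 0.18) were higher in the Schwann fraction at day 5. At day 14 Isg15 was at 116 ± 64.2 against 71.0 ± 19.6 CPM and did not pass (0.39, edgeR adjusted p = 0.139), while Usp18 was higher, at 143 ± 68.7 against 58.6 ± 26.7 (0.98, SE 0.25, edgeR adjusted p = 0.00107). Mx1 was at 26.3 ± 16.5 against 13.2 ± 5.15 CPM at day 5 (0.68, SE 0.28, edgeR adjusted p = 0.0363), a call that was lost with the animal as a block (0.53, edgeR adjusted p = 0.157) and with no filter on low counts (0.65, 0.051), and at 17.9 ± 8.79 against 15.2 ± 6.60 at day 14 (-0.10, edgeR adjusted p = 0.812). Stat2 passed at neither day (0.26 and -0.19, edgeR adjusted p = 0.133 and 0.32). Scaling by library size alone turned the day 14 differences of Mx1 and Stat2 to 0.24 and 0.20.

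Rsad2 was lower in the Schwann fraction, at 12.3, 45.8 and 158 CPM against 116, 249 and 504.3 at day 5 (-2.31, SE 0.26, edgeR adjusted p = 1.77e-09) and at 0, 24.7 and 113 against 66.1, 181 and 355 at day 14 (-2.97, SE 0.53). Oas2 was at 0, 11.2 and 45.0 against 30.2, 45.7 and 94.8 CPM at day 5 (-2.33, SE 0.59) and at 0, 11.1 and 41.9 against 52.6, 70.5 and 93.6 at day 14 (-3.06, SE 0.42, edgeR adjusted p = 1.39e-07). No Schwann fraction library reached the macrophage mean for either gene. Cmpk2, a mitochondrial nucleotide kinase that neighbours Rsad2 in the genome, was at 11.1 ± 12.6 against 46.5 ± 25.5 CPM at day 5 (-2.35, SE 0.60) and 11.3 ± 8.80 against 58.0 ± 34.6 at day 14 (-2.72, SE 0.38). Irf7 was at 95.5, 225 and 396 against 431, 686 and 1159 CPM at day 5 (-1.91, SE 0.17, edgeR adjusted p = 8.16e-12) and at 222 ± 126 against 579 ± 266 at day 14 (-1.75, SE 0.23). Ifit1 was at 48.3 ± 35.9 against 177 ± 62.8 CPM at day 5 (-2.14, SE 0.36) and at 37.6 ± 36.9 against 90.8 ± 58.6 at day 14 (-1.63, SE 0.47, edgeR adjusted p = 0.00314).

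Of the receptors, Ifnar2 was lower in the Schwann fraction than in macrophages (log2 difference -1.25 at day 5 and -1.52 at day 14), and Ifnar1 was lower at day 5 (-0.25, edgeR adjusted p = 0.0156) with -0.12 at day 14. Ifngr1 was higher (0.76, edgeR adjusted p = 0.0040) and Ifngr2 lower (-0.42, 0.000692) at day 14, with 0.14 and -0.12 at day 5. None of the 4 receptors passed between repair groups or days in the sorted cells, where their log2 fold changes ran from -0.37 for Ifnar1 to 0.60 for Ifngr1. Of the further pathway genes, 20 of 65 tested were higher and 31 lower at day 5 (35.6% and 29.7% of all genes), and 24 of 66 higher and 27 lower at day 14 (37.1% and 27.6%). The Schwann fraction held far more dendritic and fewer macrophage transcripts than the macrophage libraries, and the part of those cells in these differences was not tested.

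Transcripts of the ligands themselves were scarce. Interferon beta (Ifnb1) was counted in all macrophage libraries of day 5, with a median of 1.63 CPM (0.483 to 11.3) after delayed repair and 5.63 CPM (0.789 to 11.7) after immediate repair. The groups overlapped over nearly their whole range (log2 fold change -1.02, SE 0.59, edgeR adjusted p = 0.969). At day 14 the medians were 0.665 and 0.418 CPM, against a floor of 3 counts at 0.105 to 0.201 CPM. Ifng was at 0 in every macrophage library. The 11 interferon alpha genes summed to 0 in all of these macrophage libraries but 1, which had 4 counts. Among Schwann fraction libraries Ifng was counted in 2 of 9 delayed and 1 of 7 immediate libraries at day 5, and in 6 of 7 and 1 of 8 at day 14, with a highest value of 7.76 CPM. Across the 32 macrophage libraries, centred within groups, Ifnb1 varied with Oasl1 (Pearson r = 0.67), Ifit1 (0.66) and Isg15 (0.51), and r was above 0.5 for no other member and for 0.146% of other genes. The median r over the 40 was 0.10, and Isg15 had 0.49 without the 2 libraries farthest from the median and 0.37 over the 17 libraries of day 5. This is a description over libraries that differ in depth, with group means removed.

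The 40 genes varied together from library to library within groups. The Pearson r of each gene with the mean of the other members had a median of 0.93 (0.54 to 0.98) over the 16 stump libraries, 0.76 (0.12 to 0.91) over the 32 macrophage libraries and 0.54 (-0.14 to 0.82) over the 31 Schwann fraction libraries. Each gene was left out of the mean it was set against, and the libraries differ in depth and sex. Of all other genes, 3.45%, 3.65% and 4.79% had an r above 0.5 with it. In macrophages Oasl2 (0.91), Zbp1 (0.90) and Ifi47 (0.89) followed the mean most closely, and Trim25 (0.12), Ifit1 (0.29) and Oasl1 (0.34) least. The closest in the Schwann fraction were Irgm1 (0.82), Rtp4 (0.81) and Oas1a (0.76), and the least close were Znfx1 (-0.14), Irf1 (-0.05) and Isg15 (0.01).

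The sexes were compared after the data were seen. Over all 32 macrophage libraries edgeR called 0 of 40 (2.26% of all genes called; lowest adjusted p 0.0665, for Ifi47), with 13 at an unadjusted p under 0.05 (23% of all genes) and 2 with DESeq2. Scaling by library size alone called 7. Leaving out delayed day 14 replicate 3, 4, 6 or 7 called 5, 3, 2 and 1, and leaving out immediate day 14 replicate 5 called 1. The 8 genes followed throughout ran from 0.049 for Irf7 to 0.50 for Mx1. At day 5, 17 of 40 were higher in macrophages of the 9 females than in the 8 males and 0 lower, against 13.8% and 11.3% of 8409 genes. Scaling by library size alone gave 26 higher. The call held in all 20 alternatives for 12 of the 17, the others being Dtx3l, Ifit3, Irgm1, Oas2 and Stat2. The log2 difference was above 0 for 38 of 40, with a median of 0.36 against 0.03 over all genes. Ifi47 was at 27.8, 45.5 and 75.7 CPM in females and 15.9, 21.7 and 32.9 in males (0.81, SE 0.18, edgeR adjusted p = 0.00346). Ifi44 was at 10.1, 22.6 and 32.4 against 5.30, 10.5 and 13.2 CPM (0.83, SE 0.20, edgeR adjusted p = 0.00482), and Ifit3, a partner of IFIT1, at 35.0, 56.3 and 63.5 against 11.9, 21.0 and 52.8 (0.79, SE 0.28, edgeR adjusted p = 0.0476). All 9 female libraries lay above the male mean for these 3 genes, though Ifit3 lost its call in 12 of the fits that left out 1 library and with DESeq2 (adjusted p = 0.0517). Of the GTPases 4 of 5 were higher in females, and of the sensors 3 of 5. The 8 genes followed throughout ran from -0.34 for Ifit1 to 0.46 for Mx1, and of them only Stat2 passed (0.34, edgeR adjusted p = 0.0487). The receptor gene Ifngr1 was also higher in females (0.77, edgeR adjusted p = 0.000673).

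**Figure D5:**
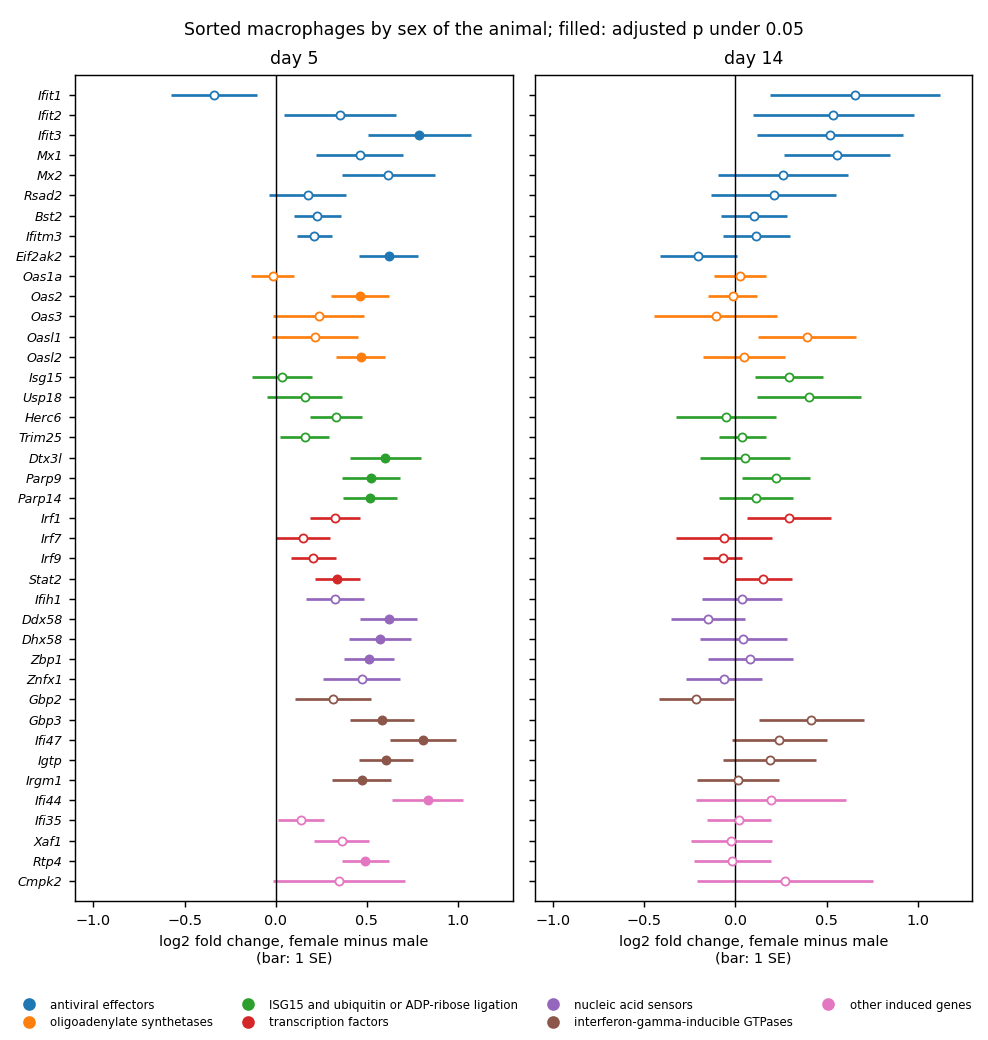
Log2 difference (female minus male) of each of the 40 interferon-stimulated genes in sorted macrophages at day 5 and day 14, with 1 standard error; colours give the role and filled points have an adjusted p under 0.05. At day 5, 17 points are filled and 38 lie to the right of 0; at day 14 none is filled.

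At day 14, edgeR called 0 of 40 between 7 females and 8 males (0.0466% of all genes called), 0 passed at an unadjusted p under 0.05 (3.07% of all genes), and DESeq2 called 0, with a median of 0.09. The 8 genes followed throughout ran from -0.21 for Gbp2 to 0.66 for Ifit1. The interaction of sex with day called 0 of 40 with edgeR (1.52% of all genes called), 3 at an unadjusted p under 0.05 (21.6% of all genes) and 1 with DESeq2, so a difference between the days was not shown. Over the 8 genes followed throughout it ran from -0.52 for Gbp2 to 1.004 for Ifit1. Its lowest p belonged to Eif2ak2, the kinase PKR (-0.81, SE 0.27, edgeR adjusted p = 0.0908), Ddx58 (-0.76, 0.104) and Oas2 (-0.47, 0.209). In the stump, edgeR called 0 of 40 between the sexes (0.0654% of all genes), with 24 of 40 at an unadjusted p under 0.05 (14.6% of all genes) and 3 with DESeq2. Isg15 had the lowest p there, at 24.7, 41.9 and 104 CPM in females and 10.2, 22.2 and 51.4 in males (1.10, SE 0.31, edgeR adjusted p = 0.241). For the Schwann fraction edgeR called 0 (0.0732% of all genes), with 7 of 40 at an unadjusted p under 0.05 (8.4% of all genes) and 0 with DESeq2. The 8 genes followed throughout ran from 0.10 for Irf1 to 1.10 for Isg15 in the stump and from -0.22 for Irf1 to 0.73 for Ifit1 in the Schwann fraction.

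At day 5 after delayed repair the mean of log2(CPM + 1) over the 40 genes was 5.52 to 6.05 in male and 6.395 to 6.70 in female macrophage libraries, and after immediate repair it was 5.71 to 6.17 and 5.96 to 6.30. At day 14 it was 5.83 to 6.90 and 5.95 to 6.23 after delayed repair and 5.69 to 5.91 and 6.12 to 6.68 after immediate repair. The sexes thus did not overlap in the delayed group of day 5 and the immediate group of day 14. Replicates 1 to 4 were male in every group and the higher numbers female, so sex and any handling shared by neighbouring numbers cannot be told apart. Among macrophage markers at day 5, Mrc1 (0.75), Fcgr3 (0.48) and C1qa (0.43) were higher and Cd14 (-0.40) lower in females. Over the 8 macrophage genes, the mean log2(CPM + 1) after delayed repair was 9.83 to 10.06 in males and 10.25 to 10.37 in females. After immediate repair it was 9.82 to 10.08 and 10.20 to 10.43, so the sexes did not overlap in either group. Of other cell types, Mbp was higher (1.15) and Xcr1 (-0.95) and S100a8 (-1.33) lower in females. The mean log2(CPM + 1) of 4 fibroblast genes after delayed repair was 0.20 to 0.68 in males and 0.91 to 2.85 in females, with no overlap, and after immediate repair it was 0.10 to 4.04 and 0.30 to 1.33. For 8 dendritic cell genes it was 3.33 to 4.19 and 4.14 to 4.78 after delayed and 3.21 to 4.40 and 3.54 to 4.60 after immediate repair. Their part in the result was not tested.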

How the data were processed

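RNA-seq was measured in 79 libraries: 32 of sorted macrophages, 31 of the sorted Schwann fraction and 16 of the tibial stump. The authors trimmed reads with cutadapt 1.8, removed residual rRNA reads from the stump libraries, aligned to mm10 with TopHat2 2.1.1 and used Cufflinks 2.2.1; versions are from the submitters' processing notes. The authors deposited estimated counts per gene without normalization or a filter; the counting program is not given in the sources used here. Between 0.951% and 1.18% of the values are not whole, and these were rounded.

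Genes that reached 5 CPM in 6 or more of the libraries compared were tested with edgeR 4.0.16 (limma 3.58.1, R 4.3.3), with TMM scaling and the quasi-likelihood test, and p-values were adjusted over all genes tested. The standard error of a log2 fold change is its size over the root of the F statistic. Levels are CPM of the library total, untouched by TMM. There were 13 comparisons of repair, day and cell type. Those between 2 repair groups or 2 days were each fitted on their own groups without covariates. The comparisons of cell types had repair group as a covariate. The interactions of repair with day had both terms and their product. A further 9 comparisons involving sex were added after the data were seen. Other fits used DESeq2 1.42.0, library size alone, no filter, sex as a covariate, a replicate block, and each library left out in turn. The 40 members, the roles and the marker and pathway lists were chosen with earlier results of these data known. Named genes are up to 5 rises and 5 falls per repair comparison and 3 of each elsewhere, by size among those past the threshold, or the 3 lowest p-values where fewer than 3 passed; 8 genes (Ifit1, Isg15, Mx1, Rsad2, Irf7, Irf1, Stat2 and Gbp2) were followed throughout, as values or as the range of their changes, and ligands and receptors are given in the stump and the sorted cells. A further gene followed under this rule is not reported here. Others named were chosen after their values were seen.

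Of 3081 pairs of libraries, 0 had identical counts. Replicates are separate animals. The macrophage and Schwann libraries of 31 animals are paired by the animal number in the labels. The count test was tested on simulated data in which 200 genes, drawn at random from those tested, changed 2-fold. It recovered 80.5% of them in the stump and 67% between cell types at day 5. In the stump the median SD within groups, as log2(CPM + 1), was 0.53 for the 40 and 0.26 over all genes. The floor of 3 counts covers counting error only. Figures were drawn with matplotlib 3.10.9 in Python 3.11.15.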

Additional observations from a re-analysis of the deposited data

Results flagged for a closer look

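Of 118 groups of values examined for a library far from the others (Dixon's test at the 95% level), 10 held one, and chance alone marks about 1 group in 20. All 10 were high values. In the stump after delayed repair (9 libraries), replicate 6 had 590.2 CPM of Rsad2, with the next library at 226.5, and replicate 5 had 149.6 CPM of Irf1 (next 107.1) and 262.9 CPM of Gbp2 (next 151.6). In macrophages after delayed repair at day 5, replicate 5 had 504.3 CPM of Rsad2 (next 285.9). In macrophages after delayed repair at day 14, replicate 3 had 1368 CPM of Irf7 (next 751.6) and 135.3 CPM of Usp18 (next 66.85). In macrophages after immediate repair at day 14, replicate 6 had 807.4 CPM of Irf7 (next 523.1). In the Schwann fraction after delayed repair at day 5, replicate 5 had 68.15 CPM of Mx1 (next 39.91) and replicate 7 had 219.9 CPM of Stat2 (next 136.4). In the Schwann fraction after immediate repair at day 14, replicate 6 had 113.1 CPM of Rsad2 (next 40.56).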

How the results depend on the processing

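The 22 members that rose in the stump became 13 with no filter on low counts, 11 with a replicate block, 7 in males only, 0 in females only, and 9 to 25 when each library was left out in turn. Adjusted p ranged over the alternatives from 4.9e-05 to 0.113 for Oas2, 0.000275 to 0.175 for Irf1, 0.00654 to 0.253 for Irf7, 0.00993 to 0.237 for Stat2, 0.00839 to 0.273 for Oas3, 0.00869 to 0.335 for Mx2 and 0.0108 to 0.231 for Ifi44. In macrophages from day 5 to day 14 after immediate repair, the 1 rise became 3 with DESeq2, 7 with library size scaling only, 0 with no filter, 3 with sex as a covariate and 0 to 3 leaving out libraries, and the 5 falls became 3 with library size scaling only, 9 with sex as a covariate, 10 with the replicate block and 4 to 8 leaving out libraries (8 without day 5 replicate 2 or day 14 replicate 5 or 6). After delayed repair, the 0 rises became 1 with DESeq2, 1 with sex as a covariate and 0 to 1 leaving out libraries, and the 1 fall became 2 with DESeq2 and 0 to 5 leaving out libraries. In the Schwann fraction after immediate repair, the 0 rises became 1 with DESeq2 and the 2 falls became 4 with DESeq2, 1 with library size scaling only and 0 to 3 leaving out libraries. After delayed repair, the 1 rise (Gbp3) became 0 with the replicate block (adjusted p = 0.0701), and the 2 falls became 1 with library size scaling only, 1 with no filter, 0 with the replicate block and 0 to 3 leaving out libraries. Between cell types at day 14, the 4 higher became 10 with library size scaling only, under which Mx1 and Stat2 reversed to 0.24 and 0.20. Between the sexes, the stump's 0 became 3 with DESeq2, the 0 of all macrophages became 2 with DESeq2, 7 with library size scaling only and 0 to 5 leaving out libraries (5, 3, 2 and 1 without delayed day 14 replicates 3, 4, 6 and 7, 1 without immediate day 14 replicate 5), the 17 of macrophages at day 5 became 26 with library size scaling only and 12 to 20 leaving out libraries, and the 0 that fell in the sex by day interaction became 1 with DESeq2. The cause of these shifts was not tested. Counts of 0 in the 4 sorted repair comparisons, the 2 repair by day interactions, the sex comparisons of the Schwann fraction and of day 14 macrophages, and the repair by sex interaction did not change in any alternative run. Replicate numbers were not taken to pair the repair or day groups, since no comparison had every pair of libraries correlated above 0.1: the correlation of same-numbered libraries ran from -0.28 to 0.11 over 7 pairs in the stump and from -0.02 to 0.49 over 8 pairs in macrophages at day 5 (7 above 0.1) and from -0.03 to 0.50 over 7 pairs in macrophages at day 14 (6 above 0.1), and 1 of 7, 3 of 8 and 5 of 7 correlated best with their own number. With the animal as a replicate block between cell types, 9 were higher and 25 lower at day 5 and 5 and 25 at day 14, and Mx1 at day 5 lost its call (0.53, adjusted p = 0.157). Depth was lowest in the stump, where 3 counts came to 0.326 to 0.769 CPM.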

Other observations

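The interferon-stimulated level of macrophages was set beside that of the Schwann fraction of the same bridge. Over 31 animals, centred within repair group and day, the mean of the 40 genes in macrophages and in the Schwann fraction had a Pearson r of 0.61 and a Spearman rho of 0.63, and an r of 0.55 without the 2 animals farthest from the median. Within groups r was 0.84 (delayed day 5, n = 9), -0.13 (immediate day 5, n = 7), 0.64 (delayed day 14, n = 7) and 0.79 (immediate day 14, n = 8), and without the 2 farthest animals of each it was 0.70, 0.42, 0.28 and 0.87. Centred by sex as well, r was 0.33 over the 31 and 0.19 without the 2 farthest. At day 5 the stump had an r of 0.28 with the macrophages (16 animals) and of 0.15 with the Schwann fraction (15 animals, rho -0.13) of the same animals. These are descriptions without a test, and both libraries of an animal share its surgery, its digestion and its sex.

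Genes outside the 40 whose level was most like the mean of the 40 across the 32 macrophage libraries were Pyhin1 (r = 0.95), Phf11d, Parp12, Ifi204 and Pydc4 (0.87). Across the 31 Schwann fraction libraries they were Pydc3 and Gbp9 (0.76 each), Ifi204, Tlr7 and Ms4a6b (0.72). In the 16 stump libraries the mean log2(CPM + 1) of natural killer cell genes had an r of 0.74 with the mean of the 40. That of T cell genes had 0.59, against 0.24 for macrophage genes and 0.21 for dendritic cell genes. In the Schwann fraction the values were 0.55 for natural killer cell genes, 0.53 for plasmacytoid dendritic cell genes and 0.46 for dendritic cell genes. All of these lists are small, the libraries differ in depth, and group means were removed before each value was taken.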
